A study of Mus musculus with 18 samples.

Results

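GABA-A receptors are the chloride channels through which GABA inhibits neurons, and each is assembled from several subunits drawn from a large gene family. Here 7 members of that family were followed: Gabra2, Gabra3, Gabra4 and Gabra5, which encode the α2 to α5 subunits, Gabrb1 and Gabrb2, which encode β1 and β2, and Gabrd, which encodes δ. They were chosen by symbol among the 55291 gene symbols of each library, all 7 were found, and all 7 had counts above 0 in all 18 libraries. Another 12 subunit genes of the family entered summed levels, among them Gabrg1 and Gabrg3.

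The libraries came from the right hippocampus of male wild-type C57BL/6J mice that received, at 6 weeks of age, AAVDJ-GfaABC1D-EGFP-Rpl10a in the right CA3 region. This virus drives a GFP-tagged ribosomal protein from the astrocyte promoter GfaABC1D, so that an anti-GFP immunoprecipitation (IP) recovers ribosome-bound RNA chiefly from infected astrocytes, while the input is the RNA of the whole homogenate. The AAV control group received the virus alone and was collected 2 weeks later. The KA group received in addition 50 nL of 20 mM kainic acid, an agonist of kainate-type glutamate receptors used to model mesial temporal lobe epilepsy, in the right dentate gyrus 2 weeks after the virus, and was collected 14 days after that injection. The PBS group received PBS after the virus. Its interval to collection is not given in the sources used here. Each group had 3 samples, each a pool of 3 to 4 hippocampi split into an IP and an input library. Total counts ranged from 7991681 to 16032180 with a median of 10313125.

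In the KA group as in AAV control, samples #1 and #2 shared sequencing run 1, sample #3 was in run 2 and the PBS group was in run 3, so that run 3 and the PBS group cannot be told apart. AAV control and KA samples also differed in time since the virus, which cannot be told apart from the KA injection. The IP to input ratio of marker genes differed between the groups. The summed FPKM (fragment counts scaled by gene length and library total) of 8 astrocyte markers was 11.2 ± 0.423 times higher in IP than in input in the AAV control group (mean ± SD over homogenates, n = 3) and 10.01 ± 2.39 times in the PBS group, but 3.09 ± 0.250 times in the KA group. For 10 neuronal markers the same ratio was 0.140 ± 0.00456, 0.164 ± 0.0444 and 0.380 ± 0.0421.

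The α subunits 2, 3 and 5 pair with β and γ subunits in receptors that sit at synapses or, for α5, mostly outside them, and α5 is known for its high level in hippocampal pyramidal cells. The δ subunit replaces γ in extrasynaptic receptors that carry tonic inhibition, and in dentate granule cells it is known to combine with α4. Both β1 and β2 complete the GABA binding site with an α subunit.

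The 7 genes lie on 5 chromosomes of GRCm38 (mm10). Gabra2 (chr5:70957597-71095849, minus strand), Gabra4 (chr5:71569749-71658308, minus strand) and Gabrb1 (chr5:71658113-72149037, plus strand) form a cluster with Gabrg1. Gabra5 (chr7:57407672-57510059, minus strand) lies beside Gabrg3. Gabrb2 (chr11:42419757-42629028, plus strand) lies on chromosome 11. Gabra3 (chrX:72432681-72656848, minus strand) lies between Gabre and Gabrq, and Gabrd (chr4:155384980-155398112, minus strand) lies apart from the other subunit genes. The heads of Gabra4 and Gabrb1 overlap by 196 bases, of which 46 are exonic in both genes, and Gabra5 shares 148 exon bases with the antisense gene Gm9962. Whether counting used strand is not given in the sources used here, so that reads of these stretches could be shared. The exon length behind FPKM ranged from 2873 bases for Gabrd to 13829 bases for Gabrb1.

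In whole hippocampus the most abundant of the 7 per length was Gabra5 in each group. Its input FPKM was 32.5, 32.2 and 49.8 in AAV control #1 to #3, 49.1, 45.7 and 50.9 in PBS and 23.3, 23.3 and 32.8 in KA. The third AAV control sample lay with the PBS samples, and the third KA sample was the highest of its group and overlapped the AAV control range. Gabra4 followed with group means between 17.8 and 20.1 FPKM, then Gabrb1 with 15.1 to 17.2 and Gabra2 with 12.4 to 13.98. Ranges of neighbours in this order overlapped for Gabra4 and Gabrb1 in the KA and PBS groups and for Gabrb1 and Gabra2 in the AAV control and PBS groups. Gabrd (5.53 to 5.90 FPKM) and Gabra3 (4.71 to 6.31 FPKM) overlapped in each group, and Gabrb2 was lowest with 1.88 to 2.33 FPKM.

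**Figure D1:**
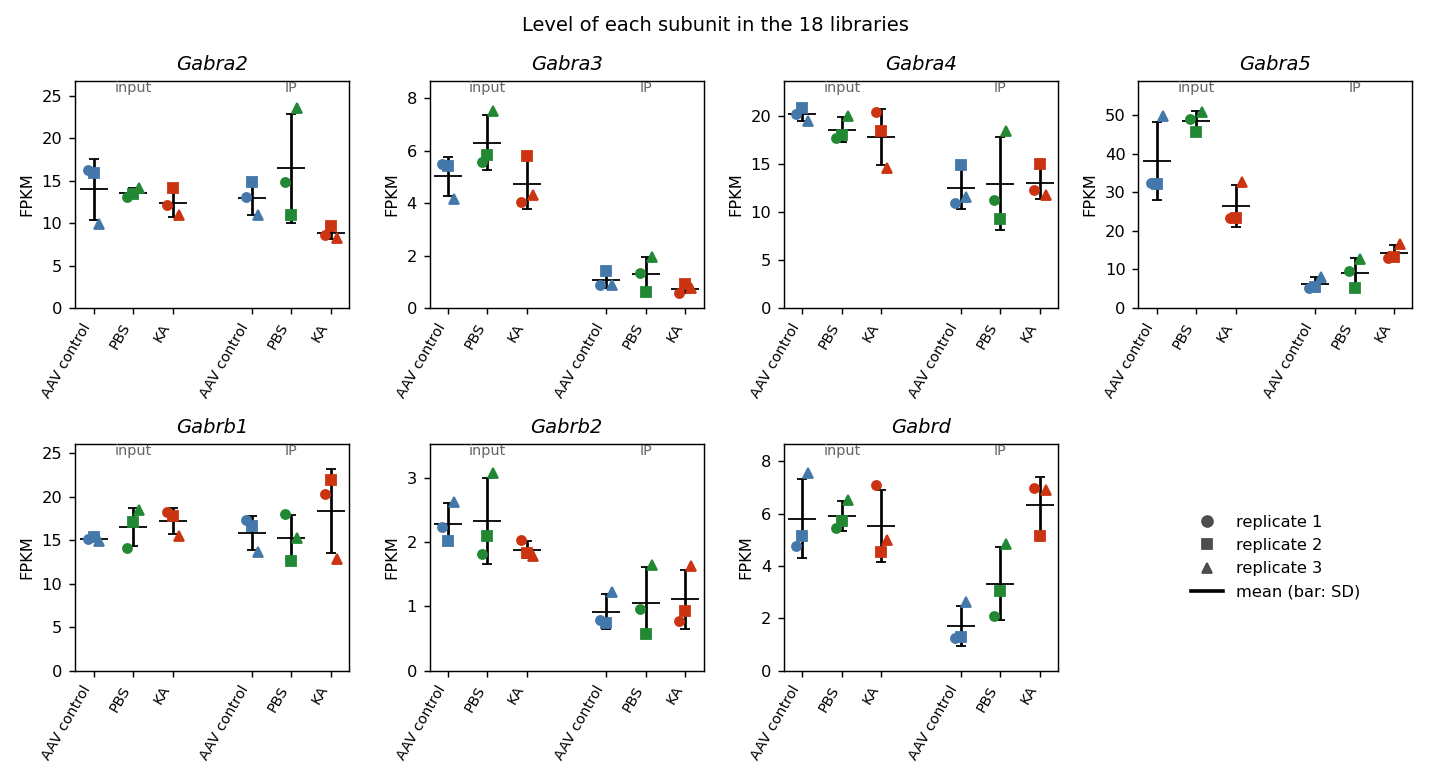
FPKM of each of the 7 subunits in the 3 input and 3 IP libraries of the AAV control (blue), PBS (green) and KA (red) groups, with marker shape giving the replicate number, the long bar the mean and the whiskers the SD. Gabra5 and Gabrd of the KA group lie above all control samples in IP but not in input, and Gabra2 of the KA group lies below them in IP.

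Of the 7 subunits, 1 differed between the KA and PBS groups in input and none between the KA and AAV control groups. Gabra5 fell by 0.87 on the log2 scale against PBS (0.546 times the PBS level, SE 0.165, edgeR adjusted p = 0.00357), and the 3 KA samples lay below the 3 PBS samples. Genes called in either direction were 27.7% of all tested in this comparison, against 1 of 7 here. The other 6 subunits had log2 differences from -0.43 for Gabra3 (SE 0.150, adjusted p = 0.0562) to 0.05 for Gabrb1, and their ranges overlapped those of the PBS group. Gabrd, the δ subunit, had a log2 difference of -0.10 (SE 0.167, adjusted p = 0.689). In 1 fit of all 18 libraries the Gabra5 difference from PBS was -0.88 with an adjusted p of 0.0525. The median log2 difference of the 7 was -0.14, and that of all 10849 genes tested was 0.01.

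Against the AAV control group the edgeR test called 0 of 7 subunits in input, where 4.49% of all genes were called, with 0 at an unadjusted p under 0.05 and 0 by DESeq2 or limma-voom. Gabra5 had the largest difference, -0.53 on the log2 scale (SE 0.272, adjusted p = 0.368). Same-numbered KA and AAV control libraries deviated together, which cannot be told apart from a difference between sequencing runs. With the replicate number as a block Gabra5 was lower by the same test (log2 difference -0.51, SE 0.109, adjusted p = 0.0209). It was also called with the sequencing run as a covariate (-0.51, adjusted p = 0.00436). In the run 1 libraries alone, 2 samples in each group, 3 of the 7 were called, namely Gabra5 (-0.47, adjusted p = 4.79e-05), Gabra2 (-0.29, adjusted p = 0.00606) and Gabrb1 (0.25, adjusted p = 0.00663). The share of all genes called with the block, the covariate or run 1 alone is not given here. Input libraries #1 and #2 differed by 5.02 (KA) and 5.32 (AAV control) times the counting variance per gene. Pairs with #3 differed by 47.0 to 130 times. For Gabrb1 the 3 KA samples (18.3, 17.8 and 15.5 FPKM) lay above the 3 AAV control samples (15.1, 15.3 and 14.9 FPKM). The log2 difference over all 6 libraries was 0.18 (SE 0.130, adjusted p = 0.535).

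Neuronal markers were lower in the same input libraries. Of 10 markers, 5 fell against PBS and none rose (median log2 difference -0.40), while against AAV control the edgeR test called 0 of 10 (median -0.30, 2 at an unadjusted p under 0.05, 1 by DESeq2 and 0 by limma-voom). Their summed FPKM ranged from 953 to 1013 in KA input, 1195 to 1356 in AAV control input and 1228 to 1347 in PBS input. In CA pyramidal cell markers 5 of 8 fell against PBS, with sums of 136 to 157 FPKM in KA and 241 to 266 FPKM in PBS. In these bulk samples fewer cells of a type and less RNA per cell cannot be told apart. Microglia markers went the other way in input, with 7 of 7 tested higher against AAV control (median 2.07) and against PBS (median 1.82). Their sums were 698 to 1231 FPKM in KA, 77.8 to 128.9 in AAV control and 91.1 to 102.7 in PBS.

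**Figure D2:**
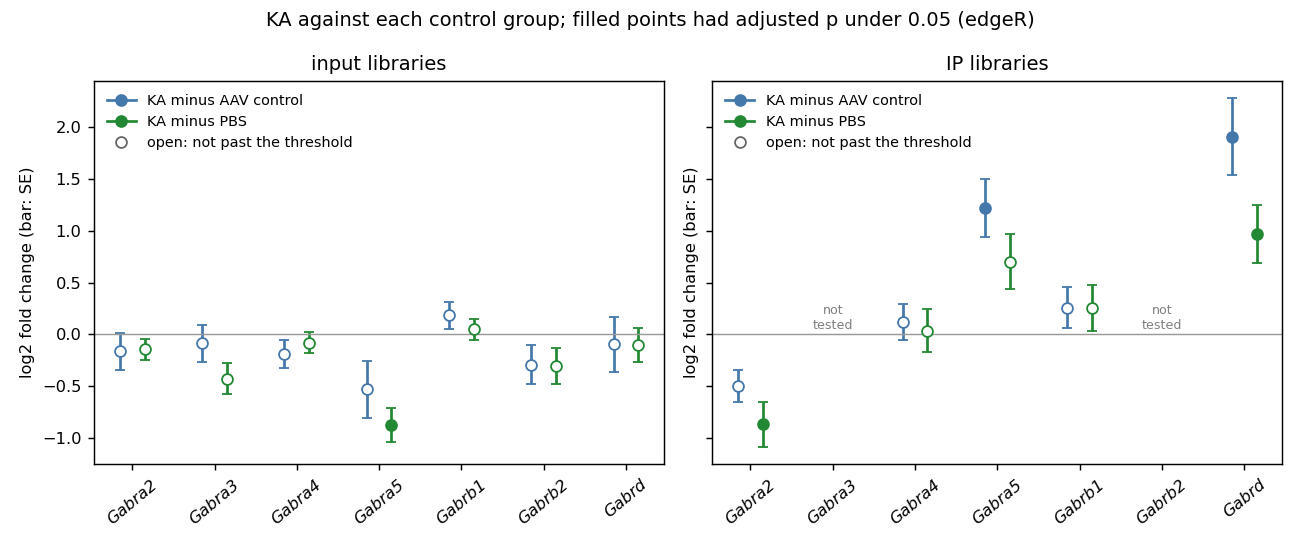
Log2 fold change of KA over AAV control (blue) and over PBS (green) for each subunit in input (left) and IP (right), with whiskers for the SE and filled points for an edgeR adjusted p under 0.05. In input only Gabra5 against PBS is filled, and in IP Gabrd rises against both controls, Gabra5 against AAV control and Gabra2 falls against PBS, while Gabra3 and Gabrb2 were not tested in IP.

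In the IP of the control groups the order was another one. Gabrb1 (15.8 FPKM in AAV control and 15.3 in PBS), Gabra2 (12.9 and 16.5) and Gabra4 (12.4 and 12.9) were the 3 highest of the 7 in both groups, with overlapping ranges among neighbours. Gabra5, the highest in input, was at 6.31 and 9.09 FPKM. Gabrd was at 1.71 and 3.33, Gabra3 at 1.06 and 1.30 and Gabrb2 at 0.916 and 1.06 FPKM. The last 2 rested on few reads in IP, 25 to 84 counts for Gabra3 and 41 to 113 for Gabrb2, and did not reach FPKM above 1 in all compared libraries, so that 5 of the 7 were tested wherever IP libraries entered.

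The ratio of IP to input in the same homogenate differed among the 7 subunits. Gabra2 had ratios of 0.804, 0.936 and 1.11 in AAV control #1 to #3 and 1.14, 0.821 and 1.66 in PBS #1 to #3. Gabrb1 had 1.15, 1.08 and 0.909 in AAV control and 1.28, 0.742 and 0.827 in PBS. Both thus lay around equal levels in IP and input, and the edgeR log2 differences were 0.05 (SE 0.196, adjusted p = 0.876) and 0.21 (SE 0.153, adjusted p = 0.323) in AAV control and 0.37 (SE 0.183, adjusted p = 0.104) and 0.03 (SE 0.185, adjusted p = 0.901) in PBS. Gabra5 had ratios of 0.163, 0.170 and 0.164 in AAV control and 0.193, 0.111 and 0.250 in PBS, close to those of the summed neuronal markers given above. Gabra4 had 0.540, 0.714 and 0.596 in AAV control and 0.635, 0.5125 and 0.9195 in PBS. Mean ratios of Gabrb2 were 0.3955 in AAV control and 0.445 in PBS. Both Gabra4 and Gabrb2 thus lay above the neuronal sum in each control homogenate.

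Gabra5, Gabrd and Gabra4 were lower in IP than in input in the AAV control group, with log2 differences of -2.44 (SE 0.324, adjusted p = 0.000939), -1.59 (SE 0.410, adjusted p = 0.0183) and -0.55 (SE 0.164, adjusted p = 0.0334). These are 3 of 5 tested members, where 39.7% of all genes were called. In the PBS group Gabra5 (-2.33, SE 0.216, adjusted p = 3.71e-06) and Gabrd (-0.73, SE 0.226, adjusted p = 0.0157) were lower, 2 of 5 where 56.3% of all genes were called, and Gabra4 had -0.43 (SE 0.173, adjusted p = 0.0523). With the homogenate as replicate block Gabra4 was called there too (adjusted p = 0.0214). All 10 neuronal markers were lower in IP in both groups, with a median of -2.71 in AAV control and -2.52 in PBS, and all 8 astrocyte markers were higher. In the KA group 9 of 10 neuronal markers were lower in IP (median -1.14). The name of neuronal subunit thus goes against the IP to input values of Gabra2 and Gabrb1 in control mice, which were near equality, and the set is called here the 7 GABA-A receptor subunits. Without AAV control #1 or #2 the Gabrd call was lost (adjusted p = 0.0899 and 0.0734), as was that of Gabra4 (0.303 and 0.196, at log2 differences of -0.47 and -0.62), which was also lost with no filter on low values (-0.54, adjusted p = 0.119), and without PBS #1 or #2 the PBS call of Gabrd was lost (0.0784 and 0.0791).

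Without the filter on low values the 2 members of low IP level could be read as well. Gabra3 had log2 differences of IP to input of -2.08 in AAV control, -2.28 in PBS and -2.36 in KA (adjusted p = 6.54e-09, 2.05e-22 and 1.07e-20). Gabrb2 had -1.15 in AAV control and -1.15 in PBS (adjusted p = 0.00201 and 6.52e-06) and -0.44 in KA (adjusted p = 0.204). Gabra3 was thus low in the IP of each group, the KA group included.

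**Figure D3:**
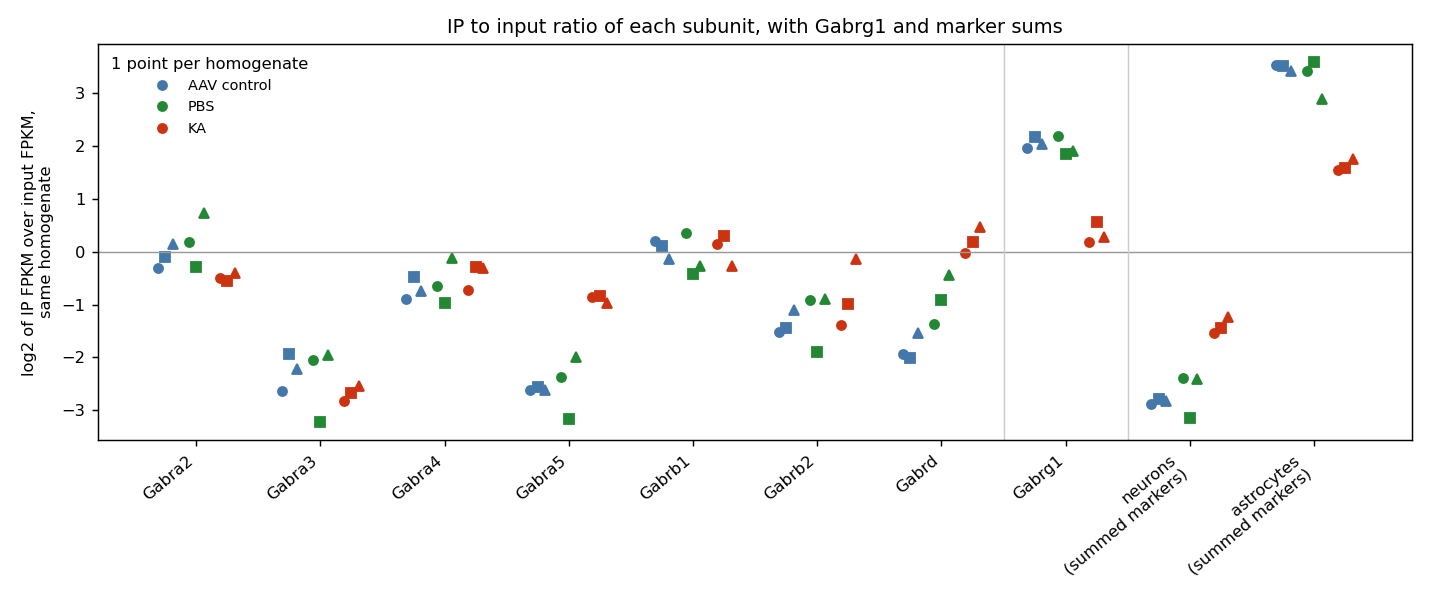
Log2 of the ratio of IP FPKM to input FPKM in each homogenate for the 7 subunits, for Gabrg1, and for the summed FPKM of 10 neuronal and 8 astrocyte markers, in AAV control (blue), PBS (green) and KA (red), with 0 meaning equal levels and marker shape giving the replicate number. Gabra5, Gabrd and the neuronal sum are higher in KA than in both control groups, and Gabrg1 and the astrocyte sum are lower.

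After KA, the IP levels of Gabrd and Gabra5 lay above those of both control groups and that of Gabra2 lay below them, while Gabra4 and Gabrb1 overlapped both control groups. Gabrd had IP levels of 6.97, 5.14 and 6.92 FPKM in KA, 1.24, 1.27 and 2.61 in AAV control and 2.11, 3.05 and 4.84 in PBS. The KA samples did not overlap either control group. Gabrd rose 3.75-fold against AAV control (log2 difference 1.91, SE 0.368, adjusted p = 0.0114) and 1.956-fold against PBS (0.97, SE 0.281, adjusted p = 0.0208). The AAV control call held without any 1 library, with log2 differences from 1.69 to 2.45. The PBS call was lost without KA #3 (0.84, adjusted p = 0.0547) or PBS #1 (0.71, adjusted p = 0.0545), and with library totals in place of TMM (0.92, adjusted p = 0.0549).

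Gabra5 had IP levels of 12.9, 13.1 and 16.7 FPKM in KA, 5.29, 5.49 and 8.16 in AAV control and 9.49, 5.06 and 12.7 in PBS. The highest PBS sample came close to the lowest KA sample. Gabra5 rose 2.33-fold against AAV control (log2 difference 1.22, SE 0.277, adjusted p = 0.0197). Its difference from PBS was 0.70 (SE 0.264, adjusted p = 0.0583). Without KA #2, KA #3, AAV control #1 or AAV control #2 the AAV control difference was 1.31, 1.02, 1.07 and 1.09 with adjusted p of 0.0509, 0.0608, 0.0751 and 0.0746. Without PBS #3 the difference from PBS was called (0.93, adjusted p = 0.0355), as it was by DESeq2 (0.71, adjusted p = 0.0364). In edgeR it was also called with filterByExpr (0.87, adjusted p = 0.0133), with no filter on low values (0.92, adjusted p = 0.000723) and with the replicate block (0.73, adjusted p = 0.0289).

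Gabra2 had IP levels of 8.55, 9.63 and 8.24 FPKM in KA, 13.0, 14.9 and 10.9 in AAV control and 14.9, 10.99 and 23.5 in PBS. All 3 KA samples were below all 6 control samples, and PBS #3 was far above the other 2 of its group. Gabra2 fell to 0.548 times the PBS level (log2 difference -0.87, SE 0.216, adjusted p = 0.0106), a call that was lost with no filter on low values (-0.64, adjusted p = 0.0515). Against AAV control the difference was -0.49 (SE 0.154, adjusted p = 0.0587). With the replicate number as a block it was called (-0.49, SE 0.118, adjusted p = 0.0203), as it was without AAV control #3 (-0.55, adjusted p = 0.0191). It was also called by DESeq2 (adjusted p = 0.0199), in 1 edgeR fit of all 18 libraries (adjusted p = 0.0489) and with the sequencing run as a covariate (adjusted p = 0.0122), each at -0.49.

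In all, 2 of the 5 tested members were called against AAV control in IP, both higher, where 20.1% of all genes were called. Against PBS 1 was higher and 1 lower of 5, where 37% of all genes were called. The 2 comparisons share the KA samples. Gabra4 had log2 differences of 0.12 (SE 0.174) from AAV control and 0.04 (SE 0.209) from PBS, and Gabrb1 of 0.26 (SE 0.197) and 0.26 (SE 0.218). In the run 1 libraries alone Gabrb1 was called against AAV control (0.38, adjusted p = 0.0117), which with Gabra2, Gabra5 and Gabrd made 4 of 5. The share of all genes called in run 1 alone is not given here.

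Markers of neurons moved in the same IP libraries. Of 10 neuronal markers 5 were higher in KA than in AAV control (median log2 difference 0.95) and 6 higher than in PBS (median 0.88), and none was lower in either. Their summed IP level was 329 to 412 FPKM in KA, 164 to 191 in AAV control and 151 to 253 in PBS, and no marker was at 0 in any group. Dentate granule cell markers had 2 higher and 1 lower of 5 tested against AAV control, with sums of 30.02 to 59.98 FPKM in KA and 25.3 to 30.2 in AAV control, and against PBS 2 were higher and 2 lower of 5. CA pyramidal cell markers had 2 higher and 2 lower of 7 against AAV control (median -0.49) and 1 higher and 4 lower of 7 against PBS (median -0.98), with sums of 39.6 to 47.8 FPKM in KA, 47.2 to 60.1 in AAV control and 62.5 to 100.2 in PBS. Interneuron markers had 4 higher and 1 lower of 6 against AAV control and 2 higher and 1 lower of 6 against PBS. Oligodendrocyte markers had 2 of 6 higher against AAV control and 6 of 6 higher against PBS, and their summed IP to input ratio was 2.15 ± 0.397 in KA, 0.639 ± 0.391 in AAV control and 0.639 ± 0.313 in PBS. Astrocyte markers had 1 higher and 4 lower of 8 against AAV control and against PBS, with sums of 2506 to 2802 FPKM in KA, 5025 to 8250 in AAV control and 5601 to 9782 in PBS. In input 3 of 8 astrocyte markers were higher in KA than in AAV control (median 0.53) and 6 of 8 higher than in PBS (median 0.73). The part of these shifts in the subunit differences was not tested. 

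The KA effect itself differed between IP and input for Gabra5 and Gabrd. The IP to input ratio of Gabrd was 0.983, 1.14 and 1.39 in KA #1 to #3, against 0.261, 0.248 and 0.345 in AAV control and 0.388, 0.532 and 0.741 in PBS. That of Gabra5 was 0.554, 0.562 and 0.510 in KA, about the same in all 3 homogenates, against the control values above. In the KA group the edgeR test called 0 of 5 members between IP and input, where 34.4% of all genes were called, with 1 at an unadjusted p under 0.05, 1 by DESeq2 and 0 by limma-voom. With the homogenate as replicate block 3 were called, Gabra5 (log2 difference -0.67, adjusted p = 0.000176), Gabra2 (-0.27, adjusted p = 0.0224) and Gabrd (0.42, adjusted p = 0.0294). The share of all genes called with the block is not given here.

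As an interaction, the KA effect in IP minus that in input was 1.76 log2 units for Gabra5 (SE 0.416, adjusted p = 0.0157) and 2.01 for Gabrd (SE 0.487, adjusted p = 0.0177) with AAV control as baseline, 2 of 5 where 13.2% of all genes were called. With PBS as baseline it was 1.57 for Gabra5 (SE 0.334, adjusted p = 0.00462), 1.07 for Gabrd (SE 0.336, adjusted p = 0.0313) and -0.72 for Gabra2 (SE 0.231, adjusted p = 0.0344), 3 of 5 where 25.5% of all genes were called. For Gabra4 and Gabrb1 it lay between 0.09 and 0.32 and was not called. This fit left out the pairing of IP and input. With the homogenate as replicate block the edgeR adjusted p was 4.98e-06 for Gabra5 and 6.26e-05 for Gabrd with AAV control as baseline. With PBS it was 0.000136 for Gabra5, 0.00603 for Gabrd and 0.0143 for Gabra2. The losses that follow are those of the fit without the block. With AAV control as baseline both calls were lost without KA #1, KA #2, AAV control #1 or AAV control #2. There log2 values lay between 1.73 and 2.16 and adjusted p between 0.0556 and 0.0740. That of Gabrd was also lost without KA #3 (1.84, adjusted p = 0.0897). With PBS as baseline the call of Gabra5 held without any 1 homogenate, with 1.42 to 1.81. There Gabrd was not called without KA #2, KA #3, PBS #1 or PBS #2 (adjusted p = 0.0550, 0.0954, 0.0901 and 0.0835), and Gabra2 was not called without KA #1, KA #2, KA #3, PBS #1 or PBS #3 (adjusted p = 0.109, 0.119, 0.0601, 0.0636 and 0.118). The Gabra2 call was also lost with filterByExpr (-0.50, adjusted p = 0.128) and with no filter on low values (-0.44, adjusted p = 0.422). The log2 ratio of FPKM + 1 was compared in 21 two-sided exact permutation tests, where 3 samples against 3 allow no p below 0.1. That p was reached by Gabra5, Gabrd and Gabra2 for KA against both controls and by Gabrd for PBS against AAV control (adjusted p = 0.3).

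Between PBS and AAV control the edgeR test called 0 of 7 in input and 0 of 5 in IP, where 0% and 0% of all genes were called, with 1 and 1 member at an unadjusted p under 0.05 and none by DESeq2 or limma-voom. The member in input was Gabra3 (log2 difference 0.36, SE 0.147, adjusted p = 0.577) and that in IP was Gabrd, with a log2 difference of 0.93 for PBS over AAV control (SE 0.397, adjusted p = 0.449). Without AAV control #3 this was 1.46 (adjusted p = 0.0321), and in input Gabra5 was then called with 0.66 (adjusted p = 0.000108). Across all genes 901 in input and 1153 in IP had an unadjusted p under 0.05, and DESeq2 called 30 and 16 and limma-voom 0 and 0.

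The make-up of the subunit pool in IP differed between the groups. The summed FPKM of the 19 subunits was 74.6 ± 5.62 in AAV control IP, 87.8 ± 26.4 in PBS IP and 130.2 ± 7.36 in KA IP (mean ± SD, n = 3), while input had 181 ± 2.33, 204 ± 13.5 and 174 ± 6.24. The 7 members made up 67.1% to 70.4% of the sum in AAV control IP, 65.2% to 69.2% in PBS IP and 42.5% to 53.4% in KA IP. Their share thus lay below both control ranges in KA IP although their own sum, 58.9 to 66.6 FPKM, was above that of AAV control (49.0 to 55.2) and within that of PBS (42.2 to 78.3). In input they made up 48.2% to 50.8% in KA, 53.4% to 58.9% in AAV control and 53.6% to 55.9% in PBS.

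By subunit, the share of Gabra2 in IP was 6.79% ± 0.890 in KA against 17.3% ± 1.43 in AAV control and 18.5% ± 2.02 in PBS. Gabra4 had 10.1% ± 1.79 against 16.6% ± 1.80 and 14.6% ± 1.84, and Gabra3 0.571% ± 0.142 against 1.41% ± 0.298 and 1.41% ± 0.351. For these 3 the KA samples did not overlap either control group. This scale covers GABA-A receptor subunits only, so it gives no share of all genes without overlap. With the 7 members as the total, the difference of Gabra4 was -3.46 percentage points from AAV control and -0.839 from PBS, with overlap in both (exact permutation p = 0.2 and 0.7). Gabrd had 4.86% ± 0.681 against 2.34% ± 1.22 in AAV control, without overlap, and 3.87% ± 1.35 in PBS, with overlap. Gabra5 had 10.9% ± 1.02 against 8.58% ± 2.74 and 10.1% ± 1.54, with overlap in both. With the 7 members as the total, Gabra5 was 10.5 percentage points above AAV control and 8.05 above PBS and Gabrd 6.83 and 4.53 above them, all without overlap (exact permutation p = 0.1 each). Which groups overlapped thus depended on the subunits in the total. In input the share of Gabra5 was 15.3% ± 3.34 in KA, 21.01% ± 5.25 in AAV control and 23.9% ± 0.719 in PBS. In the shares of all 19 subunits each comparison without overlap had a two-sided exact permutation p of 0.1, the lowest unadjusted p the design allows. The adjusted p over 28 tests was 0.233.

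**Figure D4:**
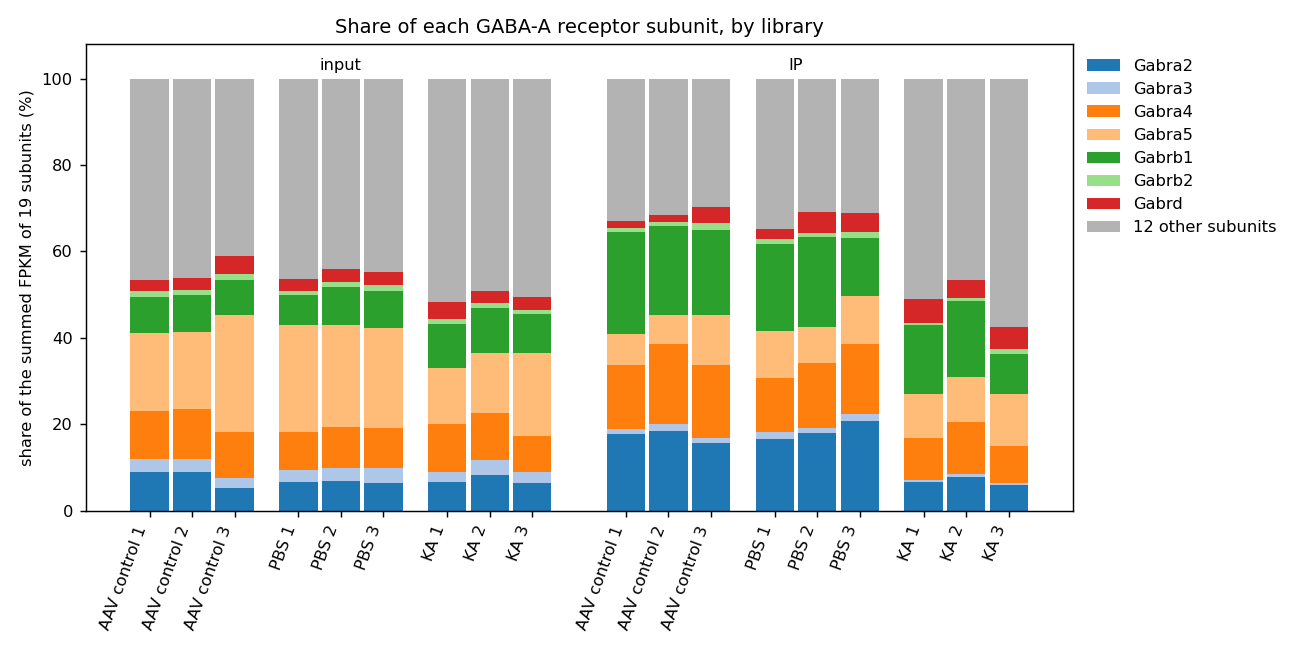
Share of each of the 7 subunits in the summed FPKM of 19 GABA-A receptor subunits, 1 bar per library, with the other 12 subunits together in grey on top. In IP the grey part is larger in the KA bars than in the control bars, and the shares of Gabra2 and Gabra4 are smaller.

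Set against the neuronal markers of the same library, Gabra5 and Gabrd of the KA IP overlapped the controls, and Gabra2, Gabra3, Gabra4 and Gabrb2 lay below them. The 10 markers themselves were higher in KA IP (median log2 difference 0.95 from AAV control and 0.88 from PBS). A subunit of unchanged FPKM in IP therefore comes out lower on this scale. In input the markers were lower in KA (median -0.30 and -0.40), and such a subunit comes out higher. On the scale of log2(FPKM + 1) minus the mean of the 10 neuronal markers, Gabra5 in IP stood at -0.94 ± 0.166 in KA, -1.18 ± 0.230 in AAV control and -0.99 ± 0.267 in PBS, and the groups overlapped. Gabrd stood at -1.99 ± 0.314, -2.63 ± 0.321 and -2.18 ± 0.520, again with overlap. The differences were 0.24 and 0.64 log2 units from AAV control (exact permutation p = 0.2 and 0.2, adjusted p = 0.35) and 0.06 and 0.19 from PBS (exact permutation p = 0.8 and 0.7). For Gabrd the overlap with AAV control depended on the setting, since the difference was 1.04 with a pseudocount of 0.1 and 0.66 with Snap25 and Syt1 as the reference, both without overlap (exact permutation p = 0.1 each).

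Gabra2 went from -0.24 ± 0.265 in AAV control and -0.19 ± 0.284 in PBS to -1.57 ± 0.156 in KA on this scale, and Gabra3 from -2.99 ± 0.224 and -3.09 ± 0.138 to -4.06 ± 0.0718. Gabra4 and Gabrb2 were likewise lower in KA than in either control, by 0.76 and 0.71 log2 units from AAV control and by 0.55 and 0.56 from PBS. None of these 4 overlapped the controls. Only the members were put on this scale, so the share of all genes without overlap is not known. The mean IP FPKM of Gabra4 itself was 13.03 in KA, 12.45 in AAV control and 12.95 in PBS. That of Gabrb2 was 1.106, 0.916 and 1.058, so neither was lower before the markers were subtracted. Gabrb1 was lower by 0.65 than in AAV control without overlap, and by 0.38 than in PBS with overlap. With Snap25 and Syt1 as the reference Gabra4 overlapped PBS (-0.38, exact permutation p = 0.3) and Gabrb1 overlapped AAV control (-0.63, exact permutation p = 0.3). In input Gabrb1 was 0.47 and 0.40 log2 units higher relative to neuronal markers in KA than in AAV control and PBS, without overlap in either, and Gabra5 was 0.52 lower than in PBS, without overlap, and 0.20 lower than in AAV control, with overlap. Gabra2 and Gabra4 were 0.22 and 0.27 higher in KA than in PBS, without overlap. With Snap25 and Syt1 as the reference Gabra2, Gabra4 and Gabrb1 were 0.53, 0.59 and 0.72 above PBS, and Gabra5 was 0.21 below it with overlap (exact permutation p = 0.2). Values without overlap had an exact permutation p of 0.1, adjusted p = 0.2 over the 28 tests against the 10 markers.

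**Figure D5:**
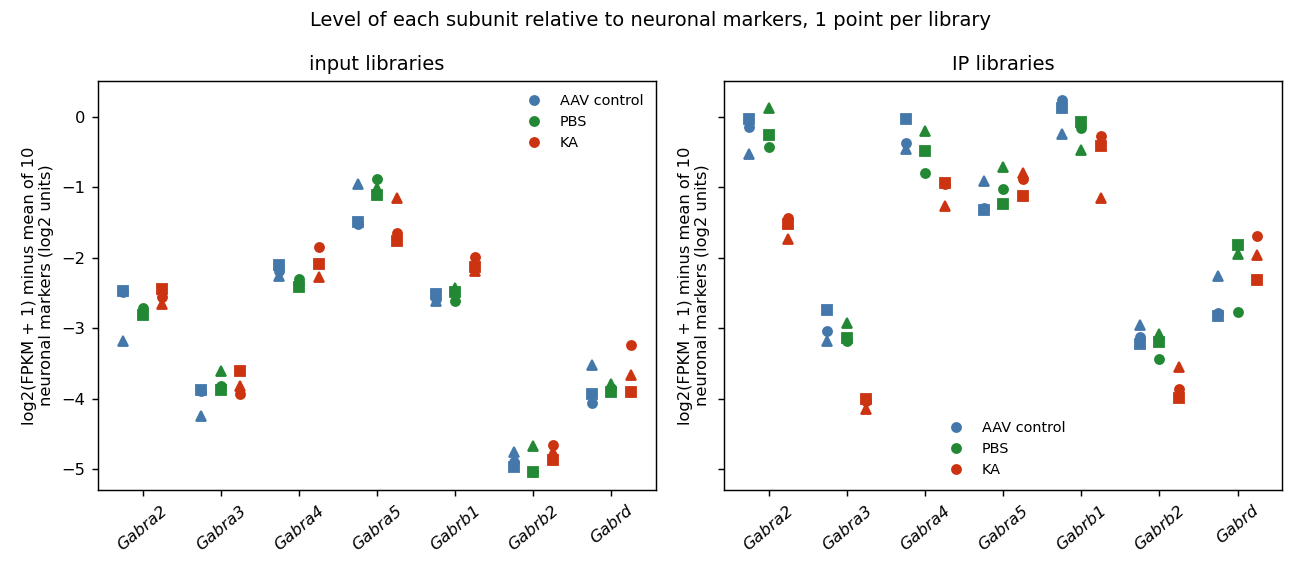
Level of each subunit as log2(FPKM + 1) minus the mean of 10 neuronal markers in the same library, for input (left) and IP (right), 1 point per library with marker shape giving the replicate number. In IP the KA points (red) of Gabra2, Gabra3, Gabra4 and Gabrb2 lie below all control points, and those of Gabra5 lie among them. Those of Gabrd overlap the control points, with KA #1 above all of them.

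Of subunits outside the 7, Gabra6, Gabre, Gabrp, Gabrq, Gabrr1, Gabrr2 and Gabrr3 stayed at or below 0.883 FPKM in all libraries and were not tested. Gabrg1, the γ1 subunit, had mean IP to input ratios of 4.18 ± 0.316 in AAV control, 3.97 ± 0.506 in PBS and 1.27 ± 0.179 in KA (SD, n = 3), and the KA homogenates did not overlap either control group. In IP it fell in KA by 1.58 on the log2 scale against AAV control (SE 0.252, edgeR adjusted p = 0.00525) and by 1.33 against PBS (SE 0.212, adjusted p = 0.00116). Gabrg3, the γ3 subunit, had a log2 difference in input of -0.67 from PBS (SE 0.166, adjusted p = 0.0132) and of -0.45 from AAV control (SE 0.186, adjusted p = 0.251).

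Of 16 genes that anchor, traffic or set the driving force of GABA-A receptors, 15 were tested in IP. There 20.1% of all genes were called against AAV control and 37% against PBS, in either direction. Against AAV control 3 rose and none fell, with a median log2 difference of 0.30: Gabarapl1, a relative of the GABA-A receptor-associated protein (0.71), Slc12a5, which encodes the chloride extruder KCC2 (0.92), and Slc12a2, which encodes the chloride importer NKCC1 (1.29). Against PBS 4 rose, among them Slc12a2 (1.52) and Nlgn2, the neuroligin of inhibitory synapses (0.79), and 2 fell, Iqsec3 (-0.67) and Trak1 (-0.54), with a median of 0.11. Slc12a5 had 0.21 against PBS (adjusted p = 0.455). Gphn, the scaffold protein gephyrin, had 0.10 and -0.15 and passed in neither. In input 0 of 16 were called against AAV control by edgeR (4 at an unadjusted p under 0.05, 1 by DESeq2, 0 by limma-voom), where 4.49% of all genes were called. Against PBS 2 rose and 5 fell in input, where 27.7% of all genes were called. Those that fell included Iqsec3 (-0.36), Slitrk3 (-0.48), Slc12a5 (-0.40) and Shisa7 (-1.16).

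Across all 18 libraries the members followed different genes. The 3 genes with the highest Pearson correlation of log2(FPKM + 1), among 13268 genes, were Nsf (r = 0.99), Rbfox1 (0.99) and Kcnab1 (0.985) for Gabra5, and Sv2b (0.99), Pls3 (0.98) and Fgf14 (0.98) for Gabra3. For Gabrb2 they were Eipr1 (0.95), Pacs1 (0.94) and Ak5 (0.94), and for Gabrd Hdac5 (0.93), Kcns1 (0.92) and Slc30a3 (0.91). Gabra4 was most like Wdr12 (0.96), Ppp1r13b (0.95) and Ap2b1 (0.94), and Gabra2 most like Mbtd1 (0.97), Pan3 (0.97) and Zmym5 (0.95). Gabrb1 had the lowest values, with Smurf1 (0.87), Eloa (0.85) and Foxn3 (0.84). Between members, Gabra5 and Gabrb2 had r = 0.90 and Gabra3 and Gabra5 0.87, while Gabra2 and Gabra5 had 0.04 and Gabrb1 lay between -0.09 and 0.19 with the other 6. These libraries share homogenates in pairs and fall into IP and input, so the correlations are descriptions of the split.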

How the data were processed

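RNA of input and GFP IP was sequenced in 18 libraries of 9 homogenates. Alignment by the authors used STAR and the mouse build mm10, and the submitters' processing notes also name featureCounts and edgeR. The deposited counts are whole numbers per gene symbol without normalization. The deposited FPKM values equal the count over the library total and a fixed gene length, within 1% for all but 36 of 20126 genes checked, and these lengths matched exon unions of GENCODE M21, the source of coordinates.

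Counts were tested with edgeR 4.0.16 in R 4.3.3 (quasi-likelihood test, TMM, genes with FPKM above 1 in all compared libraries, Benjamini-Hochberg adjustment over all genes tested), and genes with an adjusted p under 0.05 were called. The fit was tested on simulated data with 200 changed genes. The study's additional fold threshold (log2 change of 1 in either direction), DESeq2 1.42.0, limma-voom (limma 3.58.1), other scalings, filters and designs were alternatives. Shares, ratios and levels relative to neuronal markers were compared with two-sided exact permutation tests (scipy 1.17.1, pseudocount 1 on the log2 scale).

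Each homogenate gave an IP and an input library under 1 number, which pairs them by design. Between groups the numbers do not pair samples by design, since the groups were different mice. Same-numbered residuals of KA and AAV control had correlations of 0.348 to 0.551 within IP and 0.352 to 0.550 within input. In these groups #3 was sequenced in another run than the others. The correlations therefore cannot be told apart from a difference between sequencing runs. A replicate block between KA and AAV control thus rests on no known pairing. The numbers did not pair PBS with the other groups. Replicate libraries differed by 5.02 to 130 times the counting variance per gene, so that none was the same library sequenced again. In the KA and AAV control groups #1 and #2 differed by 5.02 to 11.0 times, and pairs with #3 by 47.0 to 130 times.

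Genes named are the 7 members, some of 12 other subunits and of 16 partner genes (the rest are not reported here) and, for each member, the 3 genes with the highest Pearson correlation among genes of mean FPKM of at least 1. Marker lists covered neurons, dentate granule cells, CA pyramidal cells, interneurons, astrocytes, oligodendrocytes, microglia and endothelial cells. The members and lists were chosen with earlier results of these data known.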

Additional observations from a re-analysis of the deposited data

Results flagged for a closer look

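Differences of the KA effect between IP and input, each tested as an interaction term with edgeR, passed the threshold for 3 subunits. For Gabra5 the effect in IP exceeded that in input by 1.76 log2 units with AAV control as baseline and by 1.57 with PBS. For Gabrd the excess was 2.01 with AAV control and 1.07 with PBS. The PBS call of Gabrd was lost with library totals (1.01, adjusted p = 0.0909) and in one fit of all 18 libraries (1.09, adjusted p = 0.106). For Gabra2 the effect in IP was below that in input, with a difference of -0.72 with PBS as baseline, a call that was lost with filterByExpr (-0.50, adjusted p = 0.128) and with no filter on low values (-0.44, adjusted p = 0.422). It was also lost with library totals (-0.80, adjusted p = 0.0966) and in one fit of all 18 libraries (-0.70, adjusted p = 0.0683). Calls lost without 1 homogenate are given above, and all of these calls held with the homogenate as replicate block. Neuronal markers moved in the same direction as Gabra5 and Gabrd, with 7 of 10 higher and none lower in the same interaction with either baseline (median 1.29 and 1.05), and their part in the subunit differences was not tested.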

How the results depend on the processing

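The count of members called moved with the processing as follows. KA against AAV control in input gave 0, but 1 with the replicate block, 1 with the sequencing run as covariate and 3 in the run 1 libraries alone. KA against PBS in input gave 1, but 0 with a log2 fold change of at least 1 or in one fit of all 18 libraries, 2 with edgeR's filterByExpr, with no filter or with the replicate block, and 1 to 2 when 1 replicate was left out. In IP, KA against AAV control gave 2, but 4 in run 1 alone and 1 to 3 without 1 replicate. It gave 3 with DESeq2, in one fit of all 18 libraries, with the replicate block or with the run covariate. In IP, KA against PBS gave 2, but 0 with the fold threshold, 1 with library totals and 1 to 3 without 1 replicate. It gave 3 with filterByExpr, DESeq2 or the replicate block. PBS against AAV control gave 0, with 0 to 1 without 1 replicate in input and in IP. IP against input gave 3 in AAV control (2 with the fold threshold, 4 with no filter, 5 with filterByExpr, 1 to 4 without 1 replicate). In PBS it gave 2 (1 with the fold threshold or in one fit, 5 with filterByExpr or no filter, 1 to 3 without 1 replicate). There RLE size factors, DESeq2, limma-voom and the replicate block each gave 3. In KA it gave 0 (1 with RLE size factors, filterByExpr or DESeq2, 2 with library totals, 3 with no filter or the replicate block, 0 to 3 without 1 replicate). The interaction gave 2 with AAV control as baseline (0 to 2 without 1 replicate) and 3 with PBS (1 with library totals or in one fit, 1 to 2 without 1 replicate). With PBS it gave 2 with the fold threshold, filterByExpr or no filter. The causes were not tested, and the share of all genes called under each alternative is not given beside these counts. Where a filter was relaxed, Gabra3 and Gabrb2 entered the IP tests.

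Differences that changed sign were not called under either setting. Gabrd, KA against AAV control in input, was 0.23 in run 1 alone. Gabra2, PBS against AAV control in input, was 0.0139 with filterByExpr, 0.0191 with no filter, 0.0195 with limma-voom and 0.0204 with the replicate block. Gabra4 was -0.0091 for KA against PBS in IP with library totals, and -0.0253 and -0.0602 for PBS against AAV control in IP with filterByExpr and no filter. Gabra2, IP against input in AAV control, was -0.12 with library totals, and Gabrb1, IP against input in PBS, was -0.10 with library totals, -0.0501 with filterByExpr and -0.0611 with no filter. Library totals in place of TMM shifted the median of all genes by -0.16, -0.11 and -0.23 in IP against input of AAV control, PBS and KA. When 1 replicate was left out, the following ranges crossed 0: KA against AAV control in input, Gabra3 -0.22 to 0.0374 and Gabrd -0.28 to 0.22; KA against PBS in input, Gabra4 -0.16 to 0.0024, Gabrb1 -0.0102 to 0.0793 and Gabrd -0.28 to 0.0454. For PBS against AAV control they were Gabra2 -0.17 to 0.0946, Gabrb2 -0.15 to 0.21 and Gabrd -0.12 to 0.33 in input, and Gabra4 -0.16 to 0.17 and Gabrb1 -0.16 to 0.0673 in IP. The others were Gabra4, KA against PBS in IP, -0.0862 to 0.28, Gabra2, IP against input in AAV control, -0.0419 to 0.14, Gabrb1, IP against input in PBS, -0.20 to 0.18, and Gabrb1, interaction with AAV control as baseline, -0.0283 to 0.22.

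Of 849 alternative log2 differences, 727 kept direction and side of the threshold, 44 passed it newly, 41 no longer passed it and 37 changed sign. The sign of a share changed in 7 of 28 comparisons with the 7 members as the total, that of a level relative to neurons in 2 of 28 with Snap25 and Syt1 as reference, and that of an IP to input ratio in 4 of 21 with TMM-scaled CPM. Same-numbered residuals of PBS and the other groups had correlations of both signs. With the replicate numbers as block Gabra3 was called in KA against PBS in input (-0.43, adjusted p = 0.0487) and Gabra5 in IP (0.73, adjusted p = 0.0289).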
